A study of Mus musculus with 16 samples.

Results

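The genes described here are the enzymes and carriers of the urea cycle in mouse liver: Cps1, Otc, Ass1, Asl, Arg1, Nags, Slc25a15 and Slc25a13. They were taken from the deposited expression table by gene symbol, through the Ensembl identifiers and the annotation of the GRCm38 mouse genome, and make up 8 of its 55487 genes. All 8 were above a mean of 1 TPM (a read count divided by gene length and scaled to the same total in every library), the lowest level at which a gene was tested, in the mean over 16 mice. Liver RNA was sequenced from 16 male C57BL6/J mice, 4 in each group, with 1 library per mouse. According to the sample records the mice were 10 weeks old when a high-fat diet (60% of energy as fat) began, were kept on it for 8 weeks, and were then given either a standard protein (SP) or a high protein (HP) version of a high-fat diet. Each mouse was injected under the skin daily for 22 days with vehicle or with 2.5 nmol/kg of G108, a long-acting agonist of the glucagon receptor, and livers were taken on day 25 after a 4 h fast. The study's methods give other ages, feeding times and a different day for the end of the study. The 4 groups were thus vehicle SP and vehicle HP, and G108 SP and G108 HP. Every mouse had been fed fat, and the comparison holds no lean group. Mice were housed singly and each gave its own library, so p-values measure the spread between mice.

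The urea cycle turns ammonia, freed when amino acids are broken down, into urea for excretion, and in mammals the full cycle runs in hepatocytes, mostly those near the portal vein. Its opening steps take place in mitochondria and the remainder in the cytosol, so carriers in the inner mitochondrial membrane must pass ornithine, citrulline and aspartate between both compartments. Glucagon and a protein-rich diet are both textbook inducers of these enzymes, and the comparisons asked how each member stood with G108 on either diet and with either diet under the same injection.

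The members lie on 8 different chromosomes, and all are annotated as protein-coding. In GRCm38 they cover Cps1 at chr1:67123026-67231259 (+ strand), Otc at chrX:10252305-10321024 (+), Ass1 at chr2:31470207-31520672 (+), Asl at chr5:130011258-130029247 (-), Arg1 at chr10:24915221-24927484 (-), Nags at chr11:102145513-102149477 (+), Slc25a15 at chr8:22375551-22398597 (-) and Slc25a13 at chr6:6041218-6217173 (-). Exons of Nags share 443 bases with the antisense gene Gm11586, which averaged 20.8 TPM, so reads of Nags may be split between them. No other member shares exon bases with another annotated gene.

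Start-site sequences were in the RefSeq table (GRCm38.p6) for 5 of the 8 members, and Cps1, Asl and Arg1 had none there. The stretches just before the start are shown for Ass1 and Slc25a15, which passed the test of G108 on SP with either scaling of the libraries used here, for Otc, whose level hardly moved once the libraries were scaled, and for Slc25a13, which held the single motif match, in capitals. They are, 5′ to 3′, Ass1 at chr2:31470020-31470206 (+), Slc25a15 at chr8:22398622-22398871 (-), Otc at chrX:10252055-10252304 (+) and Slc25a13 at chr6:6217174-6217423 (-). The one of Ass1 holds 187 bases because the RefSeq start lies 63 bases inside the gene as GENCODE annotates it, and only the part outside the gene is shown.
Ass1: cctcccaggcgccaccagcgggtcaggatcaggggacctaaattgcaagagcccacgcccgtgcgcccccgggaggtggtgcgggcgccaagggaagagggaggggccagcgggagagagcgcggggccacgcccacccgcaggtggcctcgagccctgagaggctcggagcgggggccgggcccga
Slc25a15: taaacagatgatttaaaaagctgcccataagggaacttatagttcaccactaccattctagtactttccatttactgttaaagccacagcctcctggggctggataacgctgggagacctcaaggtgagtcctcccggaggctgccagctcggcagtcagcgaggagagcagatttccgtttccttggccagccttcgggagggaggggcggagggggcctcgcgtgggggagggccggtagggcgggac
Otc: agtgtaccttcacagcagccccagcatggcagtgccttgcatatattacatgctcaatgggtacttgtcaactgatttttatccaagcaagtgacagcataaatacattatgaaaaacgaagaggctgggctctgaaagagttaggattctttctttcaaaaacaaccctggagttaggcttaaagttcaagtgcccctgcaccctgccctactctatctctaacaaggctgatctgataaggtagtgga
Slc25a13: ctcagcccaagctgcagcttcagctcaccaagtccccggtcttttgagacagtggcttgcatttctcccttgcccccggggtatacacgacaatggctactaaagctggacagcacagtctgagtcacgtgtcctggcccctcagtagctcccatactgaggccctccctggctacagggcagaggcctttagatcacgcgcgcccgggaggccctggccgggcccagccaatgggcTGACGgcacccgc
The cAMP response element TGACGTCA, its shorter form TGACG (which the longer one contains), the C/EBP motif TTGCNNAA and the FOXA motif TGTTTNC were looked for on both strands of the 250 bases before each RefSeq start. The only match was TGACG in Slc25a13, from 13 to 9 bases before the start, and neither Otc, Ass1, Nags nor Slc25a15 held any of the 4 motifs. Of 32851 promoters in the table, 1.55% held TGACGTCA, 17.8% TGACG, 9.56% TTGCNNAA and 17.8% TGTTTNC. The windows differed in base composition, since G and C made up 75.6% of that of Ass1, more than in 96.4% of promoters, 57.6% of that of Slc25a15 and 43.6% of that of Otc, against a median of 52.4%.

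The libraries held 27.8 M to 45.0 M assigned reads, as recovered from the steps of low TPM values, and the members were read deeply, from 1383 reads (Nags in vehicle SP 4) to 161999 (Ass1 in G108 HP 4), so counting error was small beside the spread between mice. Transcripts of the major urinary protein (Mup) genes made up 45.7% ± 3.59 of all TPM with vehicle on SP, 39.9% ± 3.88 with vehicle on HP, 21.0% ± 2.33 with G108 on SP and 24.4% ± 4.85 with G108 on HP (SD, n = 4), and TPM add up to a fixed total, so that a lower share of some genes raises the share of others. Over the 11839 genes tested, the median log2 difference stood at 0.60 with G108 on SP, 0.09 on HP, -0.35 for HP against SP with G108, 0.14 for HP against SP with vehicle, and -0.49 for the interaction. Each test is given on TPM and after median-of-ratios scaling, in which every library is divided by its median ratio to the average library over 11591 genes, and which brought these medians to between -0.01 and 0.01. G108 HP 3 stood apart by its mitochondrial transcripts, 37.3% of its TPM against 13.8 to 27.4% in the other libraries. The labelled tissue fitted its markers, since 5 hepatocyte markers summed to between 17530 and 57640 TPM in every liver, while the sums of 4 markers each of bile duct and fat cells did not exceed 2.09 and 1.19 TPM, with the fat cell gene Lep at 0 in all libraries. In whole liver, fewer hepatocytes and less RNA per hepatocyte cannot be told apart.

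With G108 on SP, all 8 members rose on TPM, by 0.76 to 2.01 on the log2 scale, with no overlap between the treated and the vehicle mice for any of them (limma, adjusted p between 0.000298 and 0.00624). On that scale 77.0% of all genes tested were also called higher and 56.0% had ranges that did not overlap. After median-of-ratios scaling 2 members were called higher, Ass1 and Slc25a15, where 1.33% of all genes were. The ranges of 3 members, Cps1, Nags and Slc25a15, did not overlap, as for 4.52% of all genes. The median log2 difference of the members was then 0.61, against -0.01 for all genes tested, with 7 members between 0.34 and 1.23 and Otc at -0.01. On HP no member was called on either scale, and Ass1, Asl and Arg1, the cytosolic enzymes, had the largest differences. Markers of some other cells also differed on SP after scaling, though 0 were called by limma. Of endothelial markers, 4 of 4 were lower (median -0.28, 3 at an unadjusted p under 0.05). So were 4 of 5 tested Kupffer cell markers (median -0.19, 1) and 4 of 5 red blood cell markers (median -0.22, 3). Among all 11839 genes tested, 2098 had an unadjusted p under 0.05. Hepatocyte markers had a median of -0.16 over 5 genes, and stellate cell markers -0.04 over 3 genes. Neither list had a gene at an unadjusted p under 0.05. The part of these cells in the members' values was not tested.

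**Figure D1:**
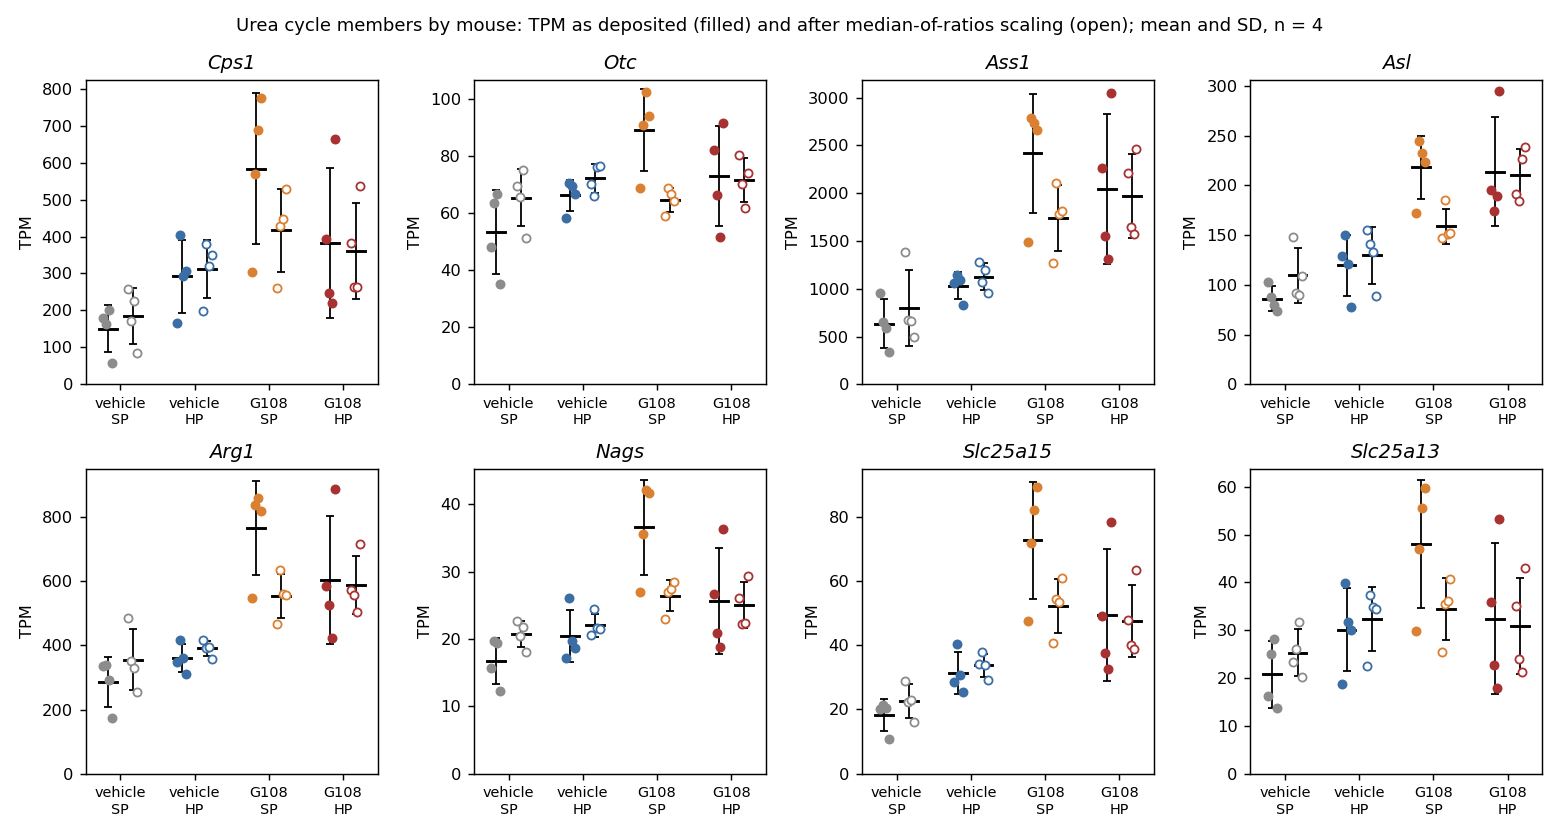
Level of each of the 8 members in each mouse, in TPM as deposited (filled points) and in TPM after median-of-ratios scaling (open points), with the mean and SD of 4 mice per group. On deposited TPM every treated mouse on SP lies above every vehicle mouse on SP for all 8 members, while after scaling this holds for Cps1, Nags and Slc25a15.

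Carbamoyl phosphate synthetase 1 (Cps1) makes carbamoyl phosphate from ammonia and bicarbonate in mitochondria and is the entry enzyme of the cycle. Its TPM were 178.8, 164.1, 200.9 and 58.7 in the vehicle SP mice and 304.8, 567.9, 687.9 and 773.7 in the G108 SP mice. They were 165.5, 404.0, 292.8 and 306.5 with vehicle on HP and 392.0, 248.0, 220.9 and 663.9 with G108 on HP. The SP groups did not overlap, although vehicle SP 4 was far under the rest of its group, and the HP groups overlapped widely. The log2 difference with G108 was 2.01 ± 0.43 (SE) on SP (limma, adjusted p = 0.00178) and 0.31 ± 0.43 on HP (adjusted p = 0.903). After scaling it was 1.23 ± 0.34 on SP, with an adjusted p of 0.0765 that missed the threshold of 0.05, and 0.19 ± 0.34 on HP. Cps1 spread more within groups than any other member, with an SE of 0.43 where those of the others lay between 0.21 and 0.33.

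N-acetylglutamate synthase (Nags) makes the activator without which Cps1 does not work. Its TPM were 15.7, 19.6, 19.4 and 12.3 in the vehicle SP mice and 27.0, 35.6, 42.2 and 41.7 in the G108 SP mice. The HP mice had 17.2, 26.1, 19.7 and 18.7 with vehicle and 26.7, 20.9, 18.8 and 36.3 with G108. The SP groups were apart and the HP groups overlapped. Nags was called higher with G108 on SP on TPM, by a log2 of 1.08 ± 0.22 (limma, adjusted p = 0.00133), and after scaling the difference was 0.34 ± 0.11 (adjusted p = 0.122), still with no overlap between the 4 treated and the 4 vehicle mice. On HP it was 0.29 ± 0.22 on TPM and 0.17 ± 0.11 after scaling. The antisense gene Gm11586 averaged 12.3 TPM in vehicle SP and 33.2 in G108 SP, or 14.98 and 23.65 after scaling, and its part in the Nags values was not tested.

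Ornithine transcarbamylase (Otc) joins carbamoyl phosphate to ornithine to give citrulline, also in mitochondria. Its TPM were 48.1, 63.5, 66.8 and 35.0 in the vehicle SP mice and 69.0, 90.9, 102.4 and 94.1 in the G108 SP mice. The HP mice had 58.4, 70.5, 69.5 and 66.8 with vehicle and 82.3, 66.4, 51.7 and 91.7 with G108. The lowest G108 SP mouse was only just above the highest vehicle SP mouse, 69.0 against 66.8 TPM. Otc was the member that moved least with G108 on SP. Its log2 difference with G108 on SP was 0.76 ± 0.21 on TPM (limma, adjusted p = 0.00624), close to the 0.60 of the median gene, and changed sign to -0.01 ± 0.12 after scaling (adjusted p = 0.976), with a 95% interval from -0.26 to 0.25. On HP it was 0.11 ± 0.21 on TPM and, with the sign again turned, -0.01 ± 0.12 after scaling. Scaled group means of Otc ran from 64.6 to 72.2 in all 4 groups, and no neighbours in that order differed by the test.

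The carrier Slc25a15 (ORNT1) exchanges ornithine and citrulline across the inner mitochondrial membrane. Its TPM were 20.1, 21.5, 20.4 and 10.9 in the vehicle SP mice and 47.6, 71.7, 82.1 and 89.2 in the G108 SP mice. On HP they were 28.5, 40.5, 30.8 and 25.5 with vehicle and 49.1, 37.7, 32.6 and 78.4 with G108. All G108 SP mice stood well above the vehicle SP mice, and every vehicle HP mouse was also above every vehicle SP mouse, so that this was the single member for which the vehicle groups did not overlap between the diets, on TPM and after scaling. Of all genes tested, 1.33% did so in that direction on TPM and 0.938% after scaling. Slc25a15 rose with G108 on SP on both scales, by 1.95 ± 0.28 on TPM (limma, adjusted p = 0.000298) and by 1.19 ± 0.18 after scaling (adjusted p = 0.00274). It was called in all 45 alternatives to that comparison, with adjusted p up to 0.0144, against 24 for Otc. These alternatives refit the same mice, many of them on TPM, where 77.0% of all genes were called higher. On HP the log2 difference was 0.58 ± 0.28 on TPM (adjusted p = 0.430), with overlapping groups, and 0.46 ± 0.18 after scaling (adjusted p = 0.323), with treated mice at 38.8 to 63.4 and vehicle mice at 29.2 to 38.0.

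Slc25a13 (citrin) is the carrier that exports aspartate from mitochondria in exchange for glutamate, and aspartate brings the other nitrogen atom of urea. Its TPM were 16.2, 25.1, 28.2 and 13.7 in the vehicle SP mice and 29.8, 47.0, 55.6 and 59.8 in the G108 SP mice. On HP they were 18.8, 39.9, 31.8 and 30.1 with vehicle and 35.9, 22.7, 17.9 and 53.3 with G108. The SP groups were separated by a small gap, 28.2 to 29.8 TPM, and the G108 HP mice covered the whole range of the vehicle HP mice. The log2 difference with G108 on SP was 1.18 ± 0.33 on TPM (limma, adjusted p = 0.00619) and 0.43 ± 0.23 after scaling (adjusted p = 0.327), where the groups overlapped. On HP it was 0.03 ± 0.33 on TPM and turned to -0.09 ± 0.23 after scaling, neither called. The other member of this carrier pair, Slc25a12, was near the detection filter at 0.790 ± 0.131 TPM in the vehicle SP mice and 1.69 ± 0.313 in the G108 SP mice, or 0.983 and 1.22 after scaling (SD, n = 4), so that almost all aspartate-glutamate carrier RNA in these livers was Slc25a13.

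Argininosuccinate synthase (Ass1) joins citrulline and aspartate in the cytosol, and was the most abundant member in every mouse. Its TPM were 959.1, 651.9, 585.9 and 335.7 in the vehicle SP mice and 1487, 2786, 2737 and 2656 in the G108 SP mice. On HP they were 1063, 1148, 1092 and 830.6 with vehicle and 2267, 1551, 1315 and 3051 with G108. Treated and vehicle mice did not overlap on either diet, and G108 SP 1 was set off from the other treated SP mice. Ass1 rose with G108 on SP on both scales, by 1.98 ± 0.31 on TPM (limma, adjusted p = 0.000461) and by 1.21 ± 0.27 after scaling (adjusted p = 0.0241), where vehicle SP 1 at 1387 came to lie above G108 SP 1 at 1269. On HP the log2 difference was 0.92 ± 0.31 on TPM (adjusted p = 0.219) and 0.79 ± 0.27 after scaling (adjusted p = 0.214), not called on either scale though without overlap on both.

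Argininosuccinate lyase (Asl) splits argininosuccinate into arginine and fumarate. Its TPM were 102.6, 88.1, 80.0 and 73.9 in the vehicle SP mice and 171.9, 244.3, 232.9 and 223.2 in the G108 SP mice. The HP mice had 129.4, 150.5, 121.2 and 77.6 with vehicle and 195.9, 174.4, 189.7 and 295.2 with G108. Asl was apart between treated and vehicle mice on both diets on TPM, and on HP after scaling too, where vehicle mice had 88.9 to 155.4 and treated mice 184.7 to 238.6. The log2 difference on SP was 1.33 ± 0.21 on TPM (limma, adjusted p = 0.000499) and 0.56 ± 0.18 after scaling (adjusted p = 0.138). Asl was the member nearest to a call on HP, at 0.84 ± 0.21 on TPM (adjusted p = 0.0760) and 0.72 ± 0.18 after scaling (adjusted p = 0.0881). Over the 45 alternatives for that comparison its adjusted p lay between 0.00448 and 0.294, and 4 of them called it.

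Arginase 1 (Arg1) cuts arginine into urea and ornithine and closes the cycle. Its TPM were 335.0, 339.5, 293.5 and 174.2 in the vehicle SP mice and 546.8, 837.0, 860.1 and 818.2 in the G108 SP mice. On HP they were 347.1, 417.6, 360.7 and 312.1 with vehicle and 585.9, 525.5, 422.3 and 886.4 with G108. No treated mouse overlapped with the vehicle mice of its diet, though the gap on HP was narrow, 417.6 to 422.3 TPM. The log2 difference was 1.44 ± 0.25 on SP on TPM (limma, adjusted p = 0.000680) and 0.67 ± 0.17 after scaling, with an adjusted p of 0.0501 just outside the threshold. On HP it was 0.70 ± 0.25 on TPM (adjusted p = 0.233) and 0.58 ± 0.17 after scaling (adjusted p = 0.142). The mitochondrial arginase Arg2 and the carrier Slc25a2, a relative of Slc25a15, were barely transcribed, at 0.157 to 0.411 and 0.144 to 0.263 TPM in the group means, and were under the filter.

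**Figure D2:**
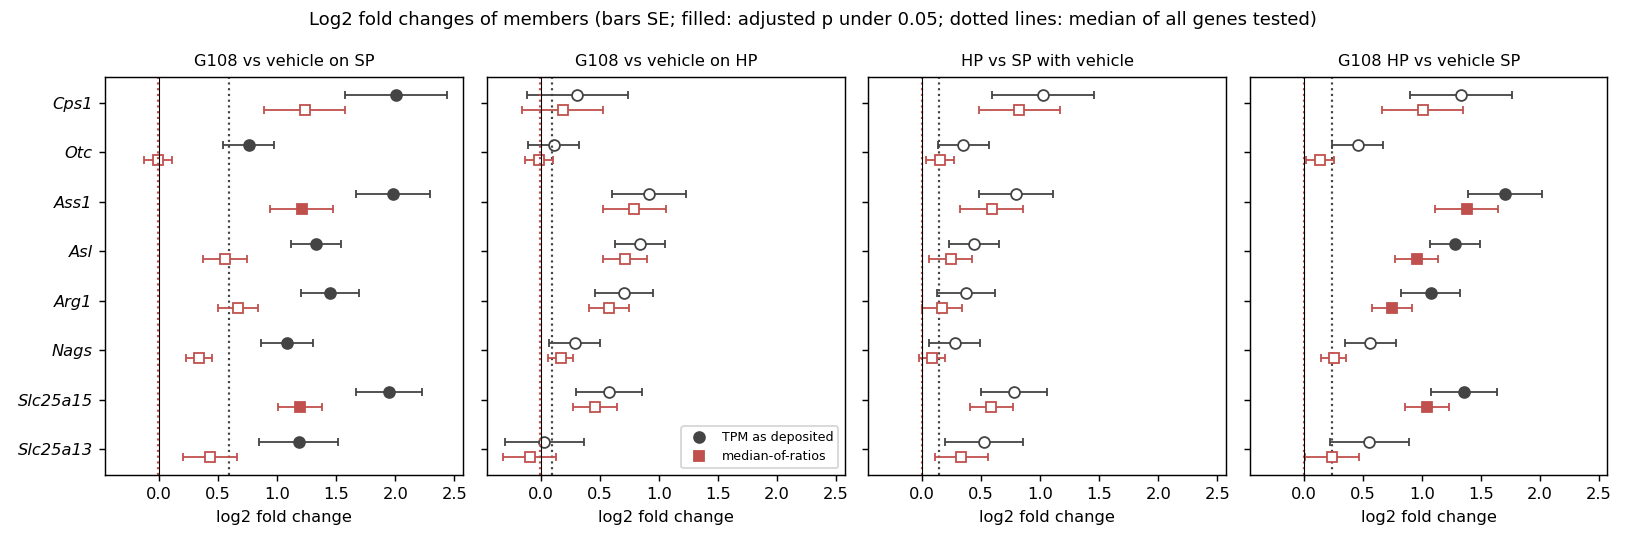
Log2 difference of each member in 4 comparisons on TPM (grey circles) and after median-of-ratios scaling (red squares), with SE as bars, filled symbols for an adjusted p under 0.05 and dotted lines at the median of all genes tested. On SP 8 members are filled on TPM and 2 after scaling, none is filled on HP or between the diets with vehicle, and the same 4 members, Ass1, Asl, Arg1 and Slc25a15, are filled on both scales for G108 HP against vehicle SP.

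The number of members called with G108 on SP after scaling rested on single mice. It was 5 without vehicle SP 1 (1.94% of all genes called higher), 4 without G108 SP 1 and 3 without G108 HP 4. It fell to 1, Slc25a15, without vehicle SP 2 (0.844%), vehicle SP 3 (0.791%) or vehicle SP 4. It was also 1 without G108 SP 2, G108 SP 3 or G108 SP 4. The share of all genes called also moved with the library left out, so a count printed without it does not single out the members. With each library's slope of expression on GC content in the fit, 5 members were called (Cps1, Ass1, Arg1, Nags and Slc25a15). There 7.70% of all genes were called higher. By voom on recovered reads with that scaling 3 members were called, where 1.48% of all genes were. On HP, where 0.819% of all genes tested were called higher on TPM and 0.642% after scaling, 0 members were called by limma, 3 had an unadjusted p under 0.05 on TPM (Ass1, Asl and Arg1, against 11.9% of all genes) and 4 after scaling, with Slc25a15 added (against 11.3%). Those 3 were also the members whose ranges did not overlap on TPM, as for 7.67% of all genes, and the 4 those after scaling, as for 4.21%. Array quality weights called the same 4 on HP, where they called 15.1% of all genes higher. TPM rescaled without mitochondrial genes called Ass1, Asl and Arg1 (5.68% of all genes), voom called Asl and Arg1 (2.18%), and leaving out vehicle SP 1 on the scaled values called Asl (0.797%).

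Whether the response to G108 differed between the diets was tested directly, through the interaction. All 8 members had a smaller difference on HP than on SP on TPM, with interaction terms from -1.69 (Cps1) to -0.49 (Asl), and 0 were called by limma (0.00% of all genes; adjusted p from 0.0799 to 0.191). The member median was -0.93 on TPM and -0.29 after scaling, against -0.49 and 0.01 for all genes. On TPM 6 members had an unadjusted p under 0.05, as did 48.0% of all genes. After scaling the terms ran from -1.05 for Cps1 to 0.16 for Asl, whose sign turned, with 2 members at an unadjusted p under 0.05 (Cps1 and Slc25a15, -0.73 ± 0.26) against 7.21% of all genes, and adjusted p from 0.575 to 0.986. On TPM the count of calls was 6 without G108 HP 4, 5 without G108 SP 1 and 1 without vehicle SP 2, where 43.8%, 33.5% and 29.1% of all genes were called lower. After scaling it was 0 whichever library was left out. Array quality weights called all 8 members lower on TPM, together with 60.7% of all genes tested.

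High against standard protein under vehicle gave 8 of 8 members with a higher mean on HP on either scale, and 0 calls by limma (0.00% of all genes). Their log2 differences were 0.28 to 1.02 on TPM, with a median of 0.48 against 0.14 for all genes, and 0.09 to 0.82 after scaling, with a median of 0.29. Cps1, Ass1 and Slc25a15 had an unadjusted p under 0.05 on both scales, as did 3.16% of all genes on TPM and 3.94% after scaling. The differences after scaling were 0.82 ± 0.34 for Cps1, 0.59 ± 0.27 for Ass1 and 0.59 ± 0.18 for Slc25a15 (limma, adjusted p = 0.832 for each). Their means went from 185.1 to 312.3, from 803.6 to 1125 and from 22.6 to 33.8. The groups overlapped for Cps1 and Ass1, since vehicle HP 1 had 198.8 for Cps1 and vehicle SP 1 had 1387 for Ass1, and they did not for Slc25a15.

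Between the diets with G108, all 8 members were lower on HP on TPM, by 0.05 (Asl) to 0.67 (Cps1), and 0 were called by limma (0.00% of all genes), with a member median of -0.44 against -0.35 for all genes. After scaling 4 members were higher (Otc, Ass1, Asl and Arg1) and 4 lower (Cps1, Nags, Slc25a15 and Slc25a13), with a median of 0.00. Nags on TPM (-0.52 ± 0.22) and Asl after scaling (0.40 ± 0.18) each had an unadjusted p under 0.05 (limma, adjusted p = 0.0925 and 0.858), as did 45.0% and 5.40% of all genes. On TPM 3 members were called without G108 HP 4 (Nags, Slc25a15 and Slc25a13) and 1 without G108 SP 1 (Nags), where 42.6% and 25.3% of all genes were called lower, and none after scaling.

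Against untreated SP mice, those with both G108 and the HP diet had 4 members called higher on both scales, Ass1, Asl, Arg1 and Slc25a15, where 4.00% of all genes tested were called higher on TPM and 1.41% after scaling. The log2 differences after scaling were 1.38 ± 0.27 for Ass1 (limma, adjusted p = 0.0107), 0.96 ± 0.18 for Asl (adjusted p = 0.0107), 0.75 ± 0.17 for Arg1 (adjusted p = 0.0275) and 1.05 ± 0.18 for Slc25a15 (adjusted p = 0.00645). Ranges did not overlap for these 4 and for Cps1 (1.01 ± 0.34, adjusted p = 0.159), as for 11.2% of all genes in that direction on TPM and 4.10% after scaling. Otc (0.14 ± 0.12), Nags (0.25 ± 0.11) and Slc25a13 (0.24 ± 0.23) were not called. Ass1 and Asl were called in all 45 alternatives, Slc25a15 in 44 and Arg1 in 32, all of them refits of the same mice. Because both comparisons use the vehicle SP mice, those of G108 SP and of G108 HP against them are not independent.

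The order of the group means was the same for all 8 members on TPM, with vehicle SP lowest, then vehicle HP, then G108 HP, and G108 SP highest. The median of all genes tested had this order too. Against vehicle SP it stood at 0.14 in vehicle HP, 0.24 in G108 HP and 0.60 in G108 SP. After scaling, vehicle SP remained lowest for every member but Otc, for which G108 SP was lowest. The cytosolic enzymes Ass1, Asl and Arg1 were then highest in G108 HP, at 1973, 210.3 and 587.4, against 1742, 158.8 and 554.4 in G108 SP, and Cps1, Nags, Slc25a15 and Slc25a13 were highest in G108 SP. No neighbouring groups in the TPM order differed by an adjusted p under 0.05. After scaling the same held for the neighbours that were tested, and vehicle HP against G108 SP, neighbours for Ass1, Asl, Arg1 and Slc25a13, was not tested. Those ranges overlapped for Ass1, Asl and Slc25a13 and were apart for Arg1, at 357.3 to 416.9 and 466.5 to 633.5.

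Ratios between members within a mouse do not depend on how the library is scaled. The log2 ratio of Otc to Cps1 was -1.40 ± 0.49 with vehicle on SP, -2.07 ± 0.42 with vehicle on HP, -2.64 ± 0.37 with G108 on SP and -2.28 ± 0.41 with G108 on HP (SD, n = 4). It was lower with G108 on SP by 1.24, with ranges of -3.04 to -2.14 against -1.89 to -0.74 that did not overlap, and by 0.20 on HP, where they did. Otc fell behind every other member with G108 on SP, its log2 ratio being lower without overlap by 1.21 to Ass1, 1.24 to Slc25a15, 0.68 to Arg1, 0.57 to Asl, 0.45 to Slc25a13 and 0.36 to Nags. On HP that held for the cytosolic enzymes only, by 0.81 to Ass1, 0.74 to Asl and 0.59 to Arg1. As a share of the summed TPM of the 8 members, Otc was 4.39% ± 1.04 with vehicle and 2.16% ± 0.288 with G108 on SP, and 3.43% ± 0.414 and 2.21% ± 0.308 on HP, while Ass1 was 49.2% ± 5.42 and 57.0% ± 1.85 on SP and 53.0% ± 3.97 and 59.5% ± 1.96 on HP.

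Summed over the 8 members, the share of all TPM was 0.127% ± 0.0402 with vehicle on SP, 0.195% ± 0.0271 with vehicle on HP, 0.423% ± 0.103 with G108 on SP and 0.343% ± 0.129 with G108 on HP (SD, n = 4). Outside Mup and mitochondrial genes the shares were 0.344%, 0.459%, 0.700% and 0.687%. The treated SP mice ran from 0.478 to 0.790% on that base, with G108 SP 1 under the highest vehicle SP mouse at 0.489%, while the treated HP mice, at 0.510 to 0.929%, were all above the vehicle HP mice, at 0.418 to 0.488%.

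Some mice were at the edge of their group for most members. G108 SP 1 was lowest of its group for all 8 members on either scale, vehicle SP 4 was lowest of its group for 8 on TPM and 7 after scaling, and G108 HP 4 was highest for 8 and 7. The scaling factors of these libraries, 1.17, 0.68 and 1.24, were at the same edge of their groups. So were those of G108 HP 3 (0.84, lowest) and vehicle HP 2 (1.07, highest), described below. Ranks on TPM thus do not single out the members. Averaged over the members, the scaled log2 level relative to the vehicle SP mean was 0.40 in G108 SP 1 against 0.76 to 0.85 in the other treated SP mice, and 1.07 in G108 HP 4 against 0.49 to 0.82 in the other treated HP mice. Vehicle SP 1, at 0.37, was close to G108 SP 1 and above the other vehicle SP mice, at -0.41 to 0.07. G108 HP 3, the library with the large mitochondrial share, was lowest of its group for 7 members on TPM and 5 after scaling. Among vehicle HP mice, vehicle HP 2 was highest for 8 members on TPM. No such order was seen in that group after scaling, with vehicle HP 1 highest for 3 members and lowest for 3. Vehicle HP 2 was then highest for 4 and lowest for 1, and vehicle HP 4 highest for 1 and lowest for 4. The slope of expression on GC content was most extreme in vehicle SP 4 at 0.08 and vehicle SP 3 at -0.08 log2 units per 10 points of GC, and its part in the low values of vehicle SP 4 was not tested.

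**Figure D3:**
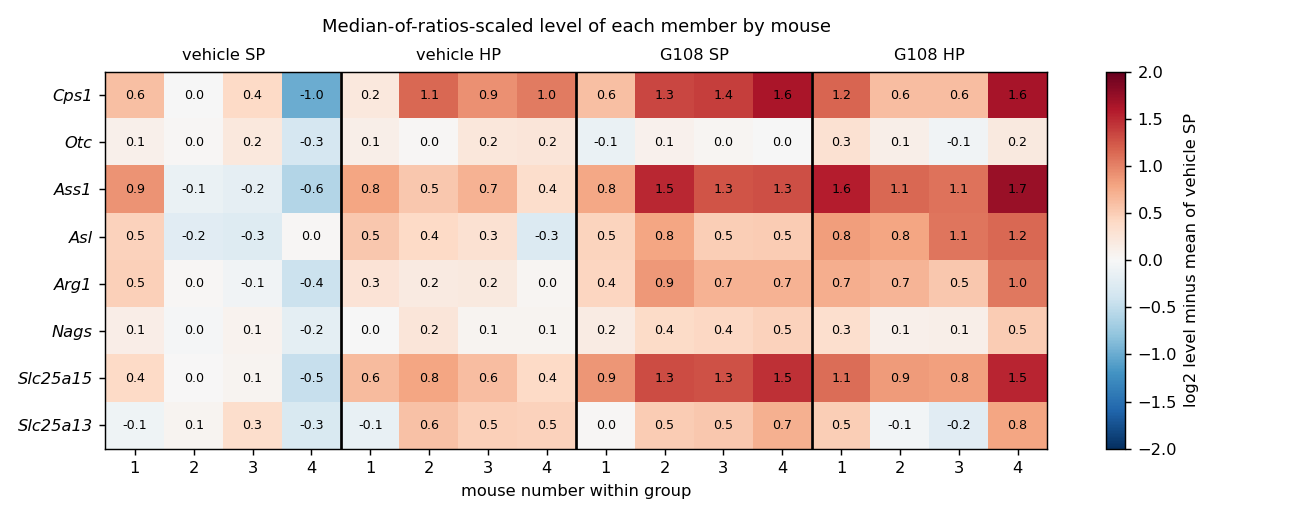
Log2 level of each member in each of the 16 mice after median-of-ratios scaling, minus the mean of the 4 vehicle SP mice. Red is higher and blue lower, Otc stays near 0 throughout, and G108 HP 4 is the deepest red column while G108 SP 1 is the palest of the treated SP mice.

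Between members, the SD of the log2 ratio over the 16 mice was smallest for Otc and Nags (0.21) and for Ass1 and Slc25a15 (0.24), and largest for Otc and Ass1 (0.62) and for Cps1 and Asl (0.60). Among 5353 genes with a mean of at least 5 TPM, those that kept closest to the geometric mean of the members were Aass, an enzyme of lysine breakdown (SD of the log2 ratio 0.10), Mrps31, a mitochondrial ribosomal protein (0.12), Slc38a4, a carrier of neutral amino acids (0.12), Mat1a, which makes S-adenosylmethionine from methionine (0.12), and Kynu, an enzyme of tryptophan breakdown (0.13). Arg1 ranked 6 at 0.13 and was the member nearest to the common course, and Cps1 was the farthest, at 0.35 and rank 1355. Each member is itself part of that mean, so members and other genes are not ranked on equal terms. Aass had a mean of 31.6 TPM with vehicle on SP, 45.8 with vehicle on HP, 84.3 with G108 on SP and 66.3 with G108 on HP. Since it was picked for keeping close to the members in these same mice, sharing their order is no separate finding. After scaling, the means of Aass were 39.5, 49.8, 60.7 and 64.1, with G108 HP highest as for Ass1, Asl and Arg1. These SDs are descriptions over 16 libraries that share a group structure and total.

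Enzymes and carriers that supply the cycle with ammonia, bicarbonate and aspartate, or use its fumarate, numbered 13 with a mean over 1 TPM of 14 listed. With G108 on SP 13 were called higher on TPM, where 77.0% of all genes were, and 4 after scaling, where 1.33% were, and on HP 1 and 0 (0.819% and 0.642%). The 4 were Got1, the cytosolic aspartate aminotransferase (2.24 ± 0.28 after scaling, limma, adjusted p = 0.000481), Fh1, which hydrates fumarate (1.38 ± 0.27, adjusted p = 0.0111), Gls2, the liver glutaminase (1.23 ± 0.18, adjusted p = 0.00186), and Slc25a22, a mitochondrial glutamate carrier (0.99 ± 0.22, adjusted p = 0.0217). Got1 was at 24.7 to 73.5 in the vehicle SP mice and 136.9 to 207.0 in the G108 SP mice on the scaled TPM. The gene of the list called on HP on TPM was Slc25a22 (0.88 ± 0.20, adjusted p = 0.0476). The median of the list on SP was 1.13 on TPM and 0.38 after scaling, beside 1.39 and 0.61 for the urea cycle members.

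Of 9 genes by which arginine, ornithine and urea enter, leave or are used, 6 were tested. On SP 5 were called higher on TPM (77.0% of all genes) and 2 after scaling (1.33%), Slc7a2, a cationic amino acid transporter (1.61 ± 0.27, limma, adjusted p = 0.00496), and Oat, which turns ornithine into glutamate semialdehyde (1.28 ± 0.22, adjusted p = 0.00497). Oat is made mainly around the central vein, unlike the members. On HP 0 were called by limma on either scale, with 2 and 3 at an unadjusted p under 0.05 (11.9% and 11.3% of all genes). Both Slc7a2 and Oat kept their groups apart there, with scaled differences of 0.85 ± 0.27 and 0.62 ± 0.22.

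Of 10 tested regulators of urea cycle genes or enzymes, 9 were called higher on SP on TPM (77.0% of all genes) and 2 after scaling (1.33%). On HP 1 and 2 were called higher (0.819% and 0.642% of all genes). The median of the list on SP was 0.64 on TPM and -0.03 after scaling, its sign turned. Ppargc1a, a coactivator, rose on both diets and both scales, by 0.89 ± 0.14 on SP and 0.66 ± 0.14 on HP after scaling (limma, adjusted p = 0.00274 and 0.0337). Its level was low, with scaled means of 0.947 and 2.56 on SP and 0.988 and 2.16 on HP. Klf15, a transcription factor of amino acid breakdown, rose on both diets after scaling, by 0.50 ± 0.10 on SP and 0.47 ± 0.10 on HP (adjusted p = 0.0171 and 0.0415), and on TPM on SP only (1.27 ± 0.18, adjusted p = 0.000286, and 0.60 ± 0.18 on HP, adjusted p = 0.149). The C/EBP, HNF4A, FOXA, glucocorticoid receptor, CREB and sirtuin genes of the list were not called after scaling.

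Because the cycle is periportal, genes of both zones were compared. Among 6 periportal genes, 5 were called higher on SP on TPM (77.0% of all genes) and 2 after scaling (1.33%). The 2 were Pck1 of gluconeogenesis (1.70 ± 0.38, limma, adjusted p = 0.0243) and Sds, which breaks down serine (1.19 ± 0.29, adjusted p = 0.0413). On HP 1 and 0 periportal genes were called higher (0.819% and 0.642% of all genes). Among 5 tested pericentral genes, 2 and 1 were called higher on SP (77.0% and 1.33%) and none on HP. The 1 after scaling was the glutamate transporter Slc1a2 (0.63 ± 0.11, limma, adjusted p = 0.00522). The list median after scaling on SP was 0.49 for the periportal and -0.35 for the pericentral genes, beside 0.61 for the members, and on HP it was 0.01 and -0.33, beside 0.32. Glul, the glutamine synthetase that takes up ammonia the cycle leaves, was called on SP on TPM (0.61 ± 0.26, adjusted p = 0.0412) and turned to -0.16 ± 0.16 after scaling, with a scaled mean of 165.0 with vehicle and 145.9 with G108.

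**Figure D4:**
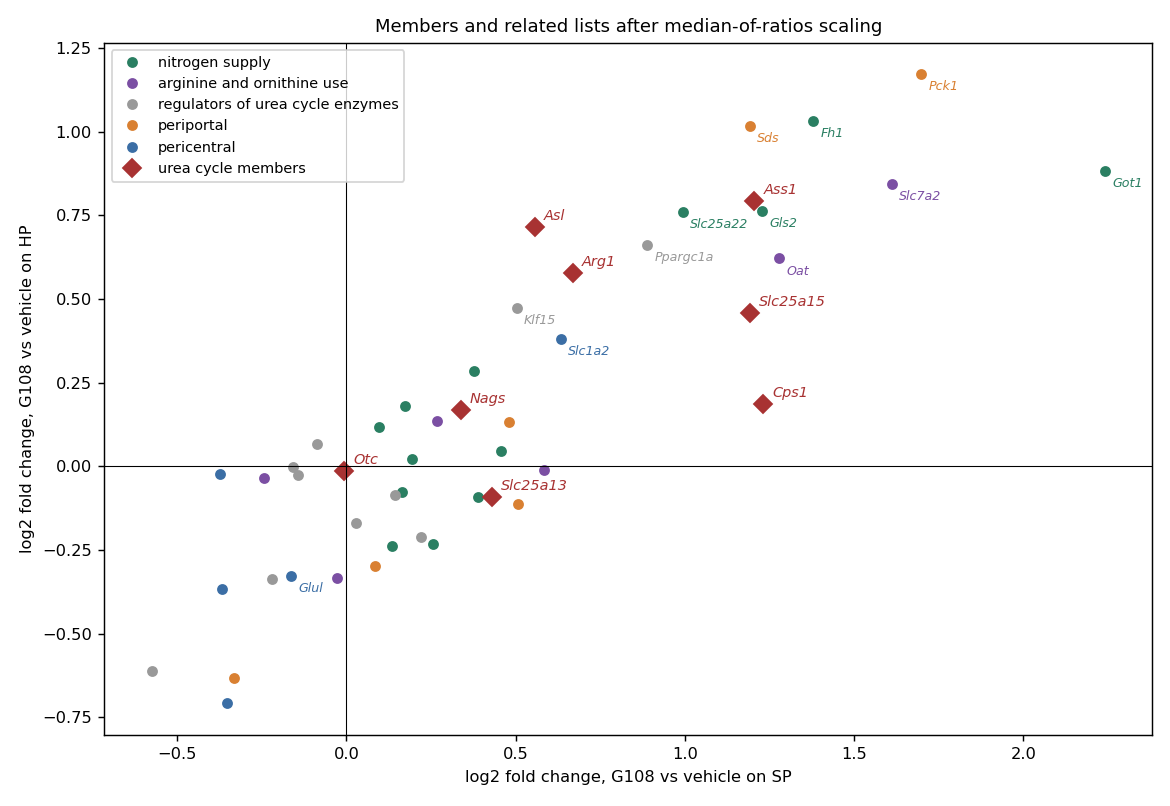
Log2 difference of G108 against vehicle on HP (vertical axis) and on SP (horizontal axis) after median-of-ratios scaling, for the 8 members (diamonds) and the genes of the 5 related lists (circles), with names for the members and the genes named in the text. Ass1 lies at 1.21 and 0.79, Asl at 0.56 and 0.72, Cps1 at 1.23 and 0.19, and Otc at the origin.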

How the data were processed

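Liver RNA from 16 mice was sequenced, 1 library per mouse and 4 per group, and groups were taken from the sample records. The authors deposited one table of TPM (length-scaled transcript abundance with the same total in every library) per gene, and the submitters' processing notes name FastQC 0.11.8, HISAT2 2.0.5, featureCounts and DESeq2 1.36.0, with the GRCm38 build. TPM divide reads by gene length and by the library total, so a change in abundant genes moves all others. Gene symbols and coordinates were those of GENCODE for GRCm38 and matched 55141 of 55487 identifiers. Low values were whole multiples of 1 read (98.7% of 139252 within 0.02 read), which gave 27.8 M to 45.0 M assigned reads per library.

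The test was limma 3.58.1 (R 4.3.3) on log2(TPM + 1), with 1 mean per group and a mean-variance trend over all 11839 genes with a mean of at least 1 TPM, Benjamini-Hochberg adjustment over these genes and a threshold of 0.05. Fold changes on this scale understate those of low genes. It was repeated after median-of-ratios scaling, whose factors ran from 0.68 to 1.54, and was tested on simulated data. Other settings were a pseudocount of 0.1, no filter, a mean of at least 5 TPM, rescaling without mitochondrial (37) or with Mup genes (49) also left out, only the groups compared, mouse number as a block, array weights, voom on recovered reads, and each library left out in turn. Python 3.11.15, pandas 2.3.3, numpy 2.4.6 and matplotlib 3.10.9 were used for summaries.

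The members and the 5 related lists were chosen with earlier results of these data known. All members were described, as were Arg2, Slc25a2, Slc25a12 and Glul, and from each list at most 4 genes called with the same sign on both scales for G108 on either diet, by their scaled difference on SP. The 5 genes nearest to the members' geometric mean were also named. The markers of other cell types summed to 34.3 to 123.2 TPM for Kupffer cells, 12.3 to 23.6 for endothelial cells, 12.6 to 36.5 for stellate cells, at most 2.45 for lymphocytes and 604.9 to 2106 for red blood cells.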

Additional observations from a re-analysis of the deposited data

Results flagged for a closer look

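In 4 of 64 groups of 4 mice (8 members, 4 groups, both scales) the highest or the lowest mouse stood apart from the other 3 by more than Dixon's 95% limit. Chance gives this in about 1 in 20 groups. Ass1 was lowest in G108 SP 1, at 1487 TPM against 2656 to 2786 in the other treated SP mice. Arg1 was lowest in the same mouse, at 546.8 TPM against 818.2 to 860.1. Slc25a15 was lowest in vehicle SP 4, at 10.88 TPM against 20.07 to 21.49. After median-of-ratios scaling, Asl was highest in G108 SP 2, at 184.9 against 146.7 to 152.3, and the low values of G108 SP 1 and vehicle SP 4 no longer passed the limit.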

How the results depend on the processing

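Of the 48 differences between groups (8 members, 6 comparisons), 35 kept both their direction and their side of the threshold when TPM were replaced by scaled values, 6 lost their call, Otc on SP with a change of sign, and 7 others changed sign. All 48 kept both with a pseudocount of 0.1 or a mean of at least 5 TPM. The cause of the changes was not tested. The settings that add the GC slope, the block, voom or a left-out library to the scaled values, and those for the lists, were chosen after seeing the data.

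With G108 on SP, where 8 members were called on TPM, 2 were called after median-of-ratios scaling, 5 once the GC slope was added to it, 2 on TPM rescaled without mitochondrial and Mup genes, and 3 by voom with that scaling. The shares of all genes called higher were, in that order, 77.0%, 1.33%, 7.70%, 1.23% and 1.48%. On HP, where 0 were called, 3 were called on TPM rescaled without mitochondrial genes (5.68% of all genes), 4 with array weights (15.1%) and 2 by voom (2.18%). Array weights also called 7 members between the diets with G108, 1 with vehicle and 8 for the interaction, where they called 71.1% of all genes lower, 0.448% higher and 60.7% lower. For G108 HP against vehicle SP, 4 on TPM (4.00% of all genes called higher) became 7 without mitochondrial genes (39.3%) and 2 with only the groups compared (1.29%).

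Mouse numbers did not pair the libraries: 3 of 16 on TPM, and 4 after scaling, correlated best with a library of their own number, and correlations of same-numbered libraries ran from -0.575 to 0.527. With the replicate block on TPM 8 members were called on SP, where 8882 of all 11839 genes tested were called higher. For G108 HP against vehicle SP it was 3 (Arg1 was lost), where 2.13% of all genes were called higher. In that setting 47 of 48 differences were as before. With the block and scaling 1 was called on SP, where 0.811% of all genes were called higher.

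Signs turned as follows, in the order scaling, block with scaling and voom with scaling. Otc on SP had -0.0076, -0.0076 and -0.0082. Otc on HP had -0.015, -0.015 and -0.015, and -0.093 without mitochondrial and Mup genes. Slc25a13 on HP had -0.092, -0.092 and -0.094, -0.17 without those genes and -0.14 with array weights. Between the diets with G108, Otc had 0.14, 0.14 and 0.15, Ass1 0.18, 0.18 and 0.18, Asl 0.40, 0.40 and 0.40, and Arg1 0.079, 0.079 and 0.082. With the GC slope these were 0.073, 0.12, 0.46 and 0.038. Without mitochondrial and Mup genes Ass1 had 0.027 and Asl 0.25, and Asl also had 0.10 without mitochondrial genes alone and 0.15 by voom. The interaction of Asl was 0.16, 0.16 and 0.17, 0.16 with the GC slope and 0.016 without both gene groups.

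Leaving out single libraries on TPM, 8 members were called on SP, where 65.5% to 78.5% of all genes were called higher, and 0 on HP. Between the diets with G108 it was 0 to 3 (42.6% of all genes lower at 3), and 0 to 6 for the interaction (43.8% lower at 6). After scaling, it was 1 to 5 on SP (1.94% higher at 5), 0 to 1 on HP (0.797% higher at 1), and 0 for the diets with G108 and the interaction. Over both scales, differences ran from -0.12 to 0.88 for Otc on SP. On HP they ran from -0.025 to 0.53 for Cps1, -0.071 to 0.26 for Otc and -0.27 to 0.27 for Slc25a13. Between the diets with G108 they ran from -0.42 to 0.21 for Otc, -0.49 to 0.28 for Ass1, -0.21 to 0.48 for Asl and -0.57 to 0.15 for Arg1. For the interaction they ran from -0.77 to 0.10 for Otc, -0.68 to 0.26 for Asl and -0.94 to 0.057 for Arg1.

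After scaling, the lists had 4 (nitrogen supply), 2 (arginine and ornithine use), 2 (regulators), 2 (periportal) and 1 (pericentral) genes called on SP, and 0 (nitrogen supply), 2 (regulators) and 0 (periportal) on HP. Of all genes, 1.33% were then called higher on SP and 0.642% on HP. With the GC slope it was 7 (nitrogen supply), 3 (arginine and ornithine use), 2 (regulators) and 1 (pericentral) on SP, and 0 (periportal) and 1 (pericentral) on HP. Of all genes, 7.70% were called higher on SP in that setting and 0.524% on HP. With libraries left out on TPM, nitrogen supply ran from 0 to 3, regulators from 0 to 1 and periportal from 0 to 2 on HP. There 0.00% to 1.37% of all genes were called higher. Pericentral ran from 1 to 3 on SP, where 65.5% to 78.5% were. The summed share of the members outside mitochondrial and Mup genes was 0.344% with vehicle on SP, 0.459% with vehicle on HP, 0.700% in G108 SP and 0.687% in G108 HP. Each member had at least 1383 reads in every library.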
